A study of Homo sapiens with 24 samples.

Results

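The 9 genes described here belong to the signalling pathways of transforming growth factor beta (TGF-beta) and the bone morphogenetic proteins (BMPs). They are the ligand genes TGFB1 and TGFB2, the TGF-beta-induced matrix protein gene TGFBI, the inhibitor genes SKIL, SMAD6 and SMAD7, and the BMP target genes ID1, ID2 and ID3. They were chosen by name, as the rows of the deposited expected-count table whose Ensembl identifiers carry these symbols, and all 9 were found among the 60675 genes of the table, of which 19586 are protein-coding.

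RNA was sequenced from SW1783, an established human astrocytoma cell line, after 24 h with extracts of Schisandrae Fructus, the dried fruit of Schisandra chinensis. In batch A the cells received the hot water extract (WESF) at 500 µg/mL (high dose), 100 µg/mL (medium dose) or 20 µg/mL (low dose), or vehicle A. In batch B they received the ethanol extract (EESF) at 310 µg/mL (high dose), 62 µg/mL (medium dose) or 12.4 µg/mL (low dose), or vehicle B. By the study's methods, a preliminary cytotoxicity screen saw no toxicity at the high dose of WESF. The high dose of EESF was set at its IC20, the concentration for 20% inhibition in that screen. Both vehicles were 0.1% DMSO, and each of the 8 groups held 3 libraries, 24 in all. All groups came from this line, and the labels name no genetic change. Nothing in the labels says that replicate libraries came from separate cultures, so p-values measure the spread between these libraries, which may be technical. Library totals ran from 18727797 to 32567395 expected counts, with the lowest in vehicle B (18727797 to 20465712) and the highest in high-dose EESF (29659110 to 32567395).

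Levels are given as CPM, the share of a library's counts that a gene takes, with library sizes scaled by edgeR's TMM method. A gene was called a differentially expressed gene (DEG) when its adjusted p in edgeR's quasi-likelihood test was under 0.05 and its fold change was beyond 1.5, which is 0.585 on the log2 scale. All 9 genes passed the filter on low counts in each comparison. Treated libraries of each dose were set against vehicle libraries of the same batch, 3 against 3. Because RNA came from whole cultures, a fall in a gene's level cannot be told apart from a smaller share of the cells that express it.

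The vehicles of the 2 batches were not unrelated. Across 9530 genes, the deviations of same-numbered vehicle A and vehicle B libraries from their group means correlated with r = 0.694, 0.351 and 0.619, whereas differently numbered libraries gave r between -0.589 and 0.0222. Counts of same-numbered vehicles also differed less, by 4.00 to 4.39 in chi-square per degree of freedom, against 5.29 to 14.6 for differently numbered ones. The labels state no link between these libraries. The vehicles may therefore not be independent controls. The values of the extracts are set side by side below, with no overlap or correlation of their changes drawn. Their difference at the high dose was tested, in a fit that takes all vehicle libraries as independent.

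Of 8 markers of astrocytes and glioma, 3 (GFAP, S100B and AQP4) were below 1 CPM in every group. The other 5 were present, led in vehicle A by VIM (4821 CPM ± 49.7, SD, n = 3) and CD44 (2836 CPM ± 112). The line thus carried only a part of this list, which does not by itself settle the cell type. At the high doses SLC1A3, a glutamate transporter of astrocytes, fell from 31.8 to 10.4 CPM with WESF and from 31.8 to 12.1 CPM with EESF, and SOX9 fell from 81.7 to 50.7 CPM and from 86.1 to 48.7 CPM. CD44 fell from 2836 to 1722 CPM and from 2896 to 2077 CPM, and NES from 7.29 to 3.17 CPM and from 6.74 to 4.93 CPM. VIM, the most abundant, was at 4796 CPM with high-dose WESF (adjusted p = 0.875) and at 5279 CPM against 4922 CPM in vehicle B with high-dose EESF (adjusted p = 0.0857). Markers listed for other cell types moved as well. The summed level of 4 neuronal markers, led by SYT1 with high-dose WESF and by SNAP25 in the other groups named here, with RBFOX3 and STMN2 below 1 CPM, was 51.5, 53.6 and 55.5 CPM in vehicle A and 23, 24.4 and 22 CPM with high-dose WESF, and it was 55.5, 55.5 and 57.1 CPM in vehicle B and 28.8, 24 and 25.2 CPM with high-dose EESF. RBFOX3, the defining gene of mature neurons, rose with high-dose WESF from 0.112 to 0.709 CPM, on 12 to 18 expected counts a library against 2 to 4. With high-dose EESF it was at 0.563 CPM against 0.138 CPM in vehicle B, on 10 to 21 expected counts a library against 1 to 4, and did not enter the test there because of its low counts. That of 3 epithelial markers, nearly all KRT18 with EPCAM and CDH1 below 1 CPM, was 132.6, 120.7 and 119.1 CPM in vehicle A against 44.3, 49.3 and 45.7 CPM with high-dose WESF, and 119.8, 117.7 and 109.8 CPM in vehicle B against 61.9, 80.2 and 76.7 CPM with high-dose EESF. That of 3 immune markers, led by CD68, was 189.9, 200.7 and 194.5 CPM in vehicle A and 239.6, 208.4 and 229.8 CPM with high-dose WESF, and it was 202.2, 226.1 and 213.9 CPM in vehicle B and 274.8, 268.6 and 277.4 CPM with high-dose EESF, while PTPRC, the defining leukocyte gene, fell from 10.2 to 2.12 CPM and from 9.81 to 1.88 CPM, and CSF1R from 3.64 to 1.46 CPM and from 3.56 to 1.82 CPM. The 3 endothelial markers, led by PECAM1 with CDH5 and VWF below 1 CPM, summed to at most 1.55 CPM in any library. The part of these markers in the results was not tested.

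TGF-beta ligands bind a pair of receptor kinases on the cell surface, which phosphorylate SMAD2 and SMAD3, and BMP ligands act through related receptors on SMAD1, SMAD5 and SMAD9. The activated SMADs join SMAD4, enter the nucleus and switch target genes on or off, among them the inhibitory SMADs that close the loop. ID proteins are the classical products of BMP signalling; they lack a DNA-binding region, hold E proteins in inactive pairs and keep cells from differentiating, and in glioma TGF-beta and ID proteins are known for their part in invasion and in the stem-like state.

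Per kilobase of merged exons, TGFBI, which encodes a matrix protein that binds integrins, had the highest level of the 9 genes in the vehicle libraries (635 CPM per kilobase ± 29.8 in vehicle A and 618 ± 34.2 in vehicle B, SD, n = 3). It was followed by ID1 (215 ± 16.5 and 201 ± 15.2), TGFB1 (161 ± 3.4 and 162 ± 6.83) and ID3 (150 ± 12.8 and 148 ± 15.9). The other 5 lay far lower, with ID2 at 11 ± 0.602 and 10.9 ± 1.03, SKIL at 10.0 ± 0.764 and 10.1 ± 0.759, SMAD7 at 7.7 ± 0.396 and 8.08 ± 0.505, TGFB2 at 4.33 ± 0.209 and 4.45 ± 0.362, and SMAD6 at 2.13 ± 0.085 and 2.08 ± 0.106 CPM per kilobase. Among neighbours in this order, the libraries of TGFB1 and ID3 overlapped and so did those of ID2 and SKIL, in both vehicles, while the other neighbours did not overlap. Of the ligand genes TGFB1 thus lay above TGFB2, and of the BMP targets ID1 and ID3 stood well above ID2.

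**Figure D1:**
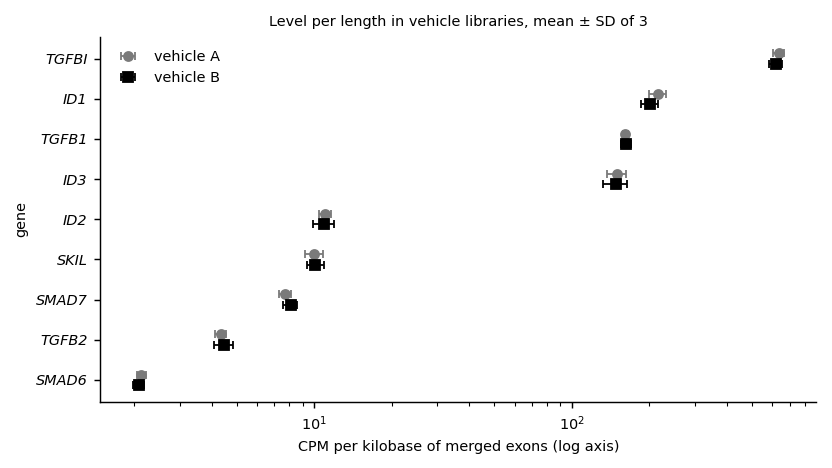
Level of the 9 genes in the 2 vehicle groups, as CPM per kilobase of merged exons on a log axis (points, mean; whiskers, SD of 3 libraries). TGFBI lies highest, ID1, TGFB1 and ID3 lie between 148 and 215 and the other 5 genes at 11 or below.

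The ID genes gave both the largest fall and the rises seen at the lower doses. The stretches of 250 bases before their RefSeq start sites (GRCh38.p14) are printed because these 3 related targets moved differently, together with that of SMAD6, which fell with ID2. They lie at chr20:31605039-31605288 (plus strand), chr2:8681806-8682055 (plus strand), chr1:23559502-23559751 (minus strand) and chr15:66701986-66702235 (plus strand), and each is written 5′ to 3′ in the direction of its gene. The RefSeq start of ID2 lies 3211 bases downstream of the GENCODE start, so its stretch falls inside the span of the gene given below. Capitals mark matches, on either strand, to GTCTAGAC (the palindrome bound by SMADs), GGCGCC (a GC-rich BMP element), TATAAA (the TATA box), CCAAT (the CCAAT box) and GGGCGG (the GC box), and neighbouring matches can overlap.
ID1: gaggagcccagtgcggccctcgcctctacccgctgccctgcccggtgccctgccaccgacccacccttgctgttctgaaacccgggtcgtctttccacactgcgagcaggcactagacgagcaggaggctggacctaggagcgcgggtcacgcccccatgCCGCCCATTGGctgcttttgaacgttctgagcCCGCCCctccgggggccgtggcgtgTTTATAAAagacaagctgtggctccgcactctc
ID2: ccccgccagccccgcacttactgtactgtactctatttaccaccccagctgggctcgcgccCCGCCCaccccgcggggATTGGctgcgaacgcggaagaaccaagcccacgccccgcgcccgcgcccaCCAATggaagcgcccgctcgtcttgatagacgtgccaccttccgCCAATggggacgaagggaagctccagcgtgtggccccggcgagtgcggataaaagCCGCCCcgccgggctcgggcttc
ID3: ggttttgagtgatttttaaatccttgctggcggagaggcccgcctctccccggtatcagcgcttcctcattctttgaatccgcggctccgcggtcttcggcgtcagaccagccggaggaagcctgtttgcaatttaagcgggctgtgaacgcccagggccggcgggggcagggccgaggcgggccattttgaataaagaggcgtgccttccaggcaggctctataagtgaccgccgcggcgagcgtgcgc
SMAD6: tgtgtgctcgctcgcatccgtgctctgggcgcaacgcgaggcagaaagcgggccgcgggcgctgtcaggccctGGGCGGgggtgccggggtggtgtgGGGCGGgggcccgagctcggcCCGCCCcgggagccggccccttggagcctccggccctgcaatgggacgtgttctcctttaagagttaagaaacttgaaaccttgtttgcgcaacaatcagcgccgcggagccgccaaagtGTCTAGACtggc
The ID1 stretch held a TATAAA that matched on both strands at 31 and 33 bases before the start, a CCAAT match at 84 bases and GGGCGG matches at 58 and 90 bases. The ID2 stretch held 3 CCAAT and 2 GGGCGG matches and no TATAAA, and none of the 5 motifs was found in the ID3 stretch. SMAD6 was the only one of the 9 genes with GTCTAGAC, 12 bases before its start, beside 3 GGGCGG matches. Of 34941 promoter stretches of the same length, 0.183% held GTCTAGAC, 16.4% GGCGCC, 10.8% TATAAA, 32% CCAAT and 42.5% GGGCGG. A match is a description of the sequence, and binding was not measured.

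ID2 (chromosome 2, 8678845 to 8684461, plus strand, GRCh38), an inhibitor of E proteins, fell most of the 9 genes. In vehicle A its level was 24.7, 25.6 and 23 CPM, and it was 28.1, 24.8 and 25.6 CPM with low-dose, 23.6, 23.8 and 25.3 CPM with medium-dose and 5.76, 5.77 and 5.52 CPM with high-dose WESF. In vehicle B it was 25.7, 25.1 and 21.5 CPM, and it was 27.7, 25 and 27.3 CPM with low-dose, 24.4, 27.6 and 25.7 CPM with medium-dose and 9.61, 9.36 and 9.3 CPM with high-dose EESF. Only the high-dose libraries stood apart, below every other library of their batch. The fitted change was -2.10 on the log2 scale with high-dose WESF (SE 0.078, adjusted p = 6.64e-13), which leaves 23.3% of the vehicle level, and -1.36 with high-dose EESF (SE 0.08, adjusted p = 7.81e-08), which leaves 39.1%. At the medium and low doses the change lay between -0.01 and 0.14 and did not pass the test.

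ID3 (chromosome 1, 23557926 to 23559501, minus strand), an ID gene that BMPs and TGF-beta both regulate, changed direction with dose of WESF. Its level was 232.5, 238.3 and 202.6 CPM in vehicle A, 242.5, 258.5 and 239.4 CPM with low-dose, 250.5, 277.4 and 275.4 CPM with medium-dose and 150.5, 137.4 and 147.7 CPM with high-dose WESF. The medium-dose libraries lay above all vehicle libraries and the high-dose libraries below them. It rose by 0.25 at the medium dose (SE 0.059, adjusted p = 0.0297) and fell to 64.7% of vehicle A at the high dose (log2 change -0.63, SE 0.057, adjusted p = 4.1e-08). Without vehicle A replicate 2 the change at the high dose was -0.58, under the fold of 1.5, and the rise at the medium dose lost its call without vehicle A replicate 2 (adjusted p = 0.0604) or 3 (0.0707) and without medium-dose replicate 2 (0.148) or 3 (0.155). This rise also lost its call with the replicate number as a block in the fit (adjusted p = 0.0538). In batch B the level was 227.6, 241.0 and 194.8 CPM with vehicle, 272.6, 279.1 and 257.1 CPM with low-dose, 274.1, 312.0 and 300.9 CPM with medium-dose and 199.1, 229.3 and 233.0 CPM with high-dose EESF. Low-dose and medium-dose libraries lay above all vehicles and the high-dose ones among them. ID3 rose by 0.28 with low-dose (SE 0.063, adjusted p = 0.0157) and by 0.42 with medium-dose EESF (SE 0.067, adjusted p = 0.00106), whereas at the high dose the log2 change was 0.00 (95% interval -0.18 to 0.17, adjusted p = 0.967). The rise with low-dose EESF lost its call without low-dose replicate 1 (0.27, adjusted p = 0.0714) or 2 (0.25, adjusted p = 0.0825).

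ID1 (chromosome 20, 31605283 to 31606515, plus strand), often read as the direct reporter of BMP signalling, was raised by EESF at each dose. Its level was 264.8, 252.1 and 228.0 CPM in vehicle B, 338.9, 312.2 and 297.2 CPM with low-dose, 311.1, 353.7 and 344.3 CPM with medium-dose and 292.5, 360.5 and 353.0 CPM with high-dose EESF. None of the 9 treated libraries overlapped the vehicle. The log2 change was 0.34 at the low dose (SE 0.057, adjusted p = 0.00402), 0.44 at the medium dose (SE 0.059, adjusted p = 0.000465) and 0.43 at the high dose (SE 0.08, adjusted p = 0.000528), all under the fold of 1.5. With WESF, ID1 was at 282.8, 268.2 and 242.5 CPM in vehicle A, 271.9, 311.0 and 271.9 CPM at the low, 307.1, 320.4 and 358.6 CPM at the medium and 258.9, 263.9 and 278.4 CPM at the high dose. Only the medium-dose libraries were all above the vehicle, with a rise of 0.31 (SE 0.061, adjusted p = 0.0135) whose call was lost without vehicle A replicate 2 (adjusted p = 0.0679) and without medium-dose replicate 2 (0.0545) or 3 (0.103). At the high dose of WESF the change was 0.01 (95% interval -0.10 to 0.12, adjusted p = 0.834).

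SMAD6 (chromosome 15, 66702236 to 66782849, plus strand), the inhibitory SMAD that acts mainly on BMP receptors, fell with both extracts at the high dose. In vehicle A it was at 17.5, 18.9 and 18.3 CPM and with high-dose WESF at 12.7, 10.5 and 12.7 CPM. In vehicle B it was at 18.8, 17.4 and 17.1 CPM and with high-dose EESF at 10.6, 12.7 and 11.7 CPM. In neither batch did the groups overlap. The log2 change was -0.60 with WESF (SE 0.079, adjusted p = 3.23e-06) and -0.61 with EESF (SE 0.083, adjusted p = 5.37e-05), both just past the threshold for a DEG. It stayed past the adjusted p but under the fold of 1.5 without vehicle A replicate 2 (-0.58), high-dose WESF replicate 2 (-0.52), vehicle B replicate 1 (-0.57) or high-dose EESF replicate 1 (-0.54). The 12 libraries of the medium and low doses lay between 15.7 and 19.9 CPM, and none of these 4 comparisons passed the test.

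SMAD7 (chromosome 18, 48919853 to 48950965, minus strand), the inhibitory SMAD that targets the TGF-beta receptors for degradation, fell with both extracts at the high dose. Its level was 29.8, 29.2 and 32.2 CPM in vehicle A and 21, 19.6 and 23 CPM with high-dose WESF. It was 32.2, 29.8 and 33.7 CPM in vehicle B and 26.7, 26.9 and 27.4 CPM with high-dose EESF. Both high-dose groups lay wholly below their vehicle, by -0.52 on the log2 scale with WESF (SE 0.067, adjusted p = 2.84e-06) and -0.24 with EESF (SE 0.064, adjusted p = 0.00649). At the medium dose the level was 26.4, 26.5 and 27.8 CPM with WESF, below all vehicle A libraries, and 34.8, 34 and 37.1 CPM with EESF, above all vehicle B libraries. Neither change passed the test (log2 -0.18, adjusted p = 0.0871, and 0.15, adjusted p = 0.11), except that with WESF it did without vehicle A replicate 1 (-0.19, adjusted p = 0.0467).

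SKIL (chromosome 3, 170357342 to 170396835, plus strand) encodes SnoN, a corepressor that binds SMADs. It was at 76.2, 79.6 and 88.2 CPM in vehicle A and 91.4, 100.2 and 87.5 CPM with high-dose WESF, a rise of 0.19 (SE 0.06, adjusted p = 0.00876) with overlapping groups. The call was lost without high-dose WESF replicate 2 (0.14, adjusted p = 0.0653). It was at 75, 83.2 and 87.1 CPM in vehicle B and 88.1, 71.9 and 76.8 CPM with high-dose EESF, which scattered on both sides of the vehicle (log2 change -0.05, 95% interval -0.22 to 0.12, adjusted p = 0.59). At the lower doses its group means lay between 73.8 and 80.3 CPM and no change passed the test, except at the medium doses without vehicle A replicate 1 (-0.19, adjusted p = 0.018) and without vehicle B replicate 1 (-0.18, adjusted p = 0.0121).

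**Figure D2:**
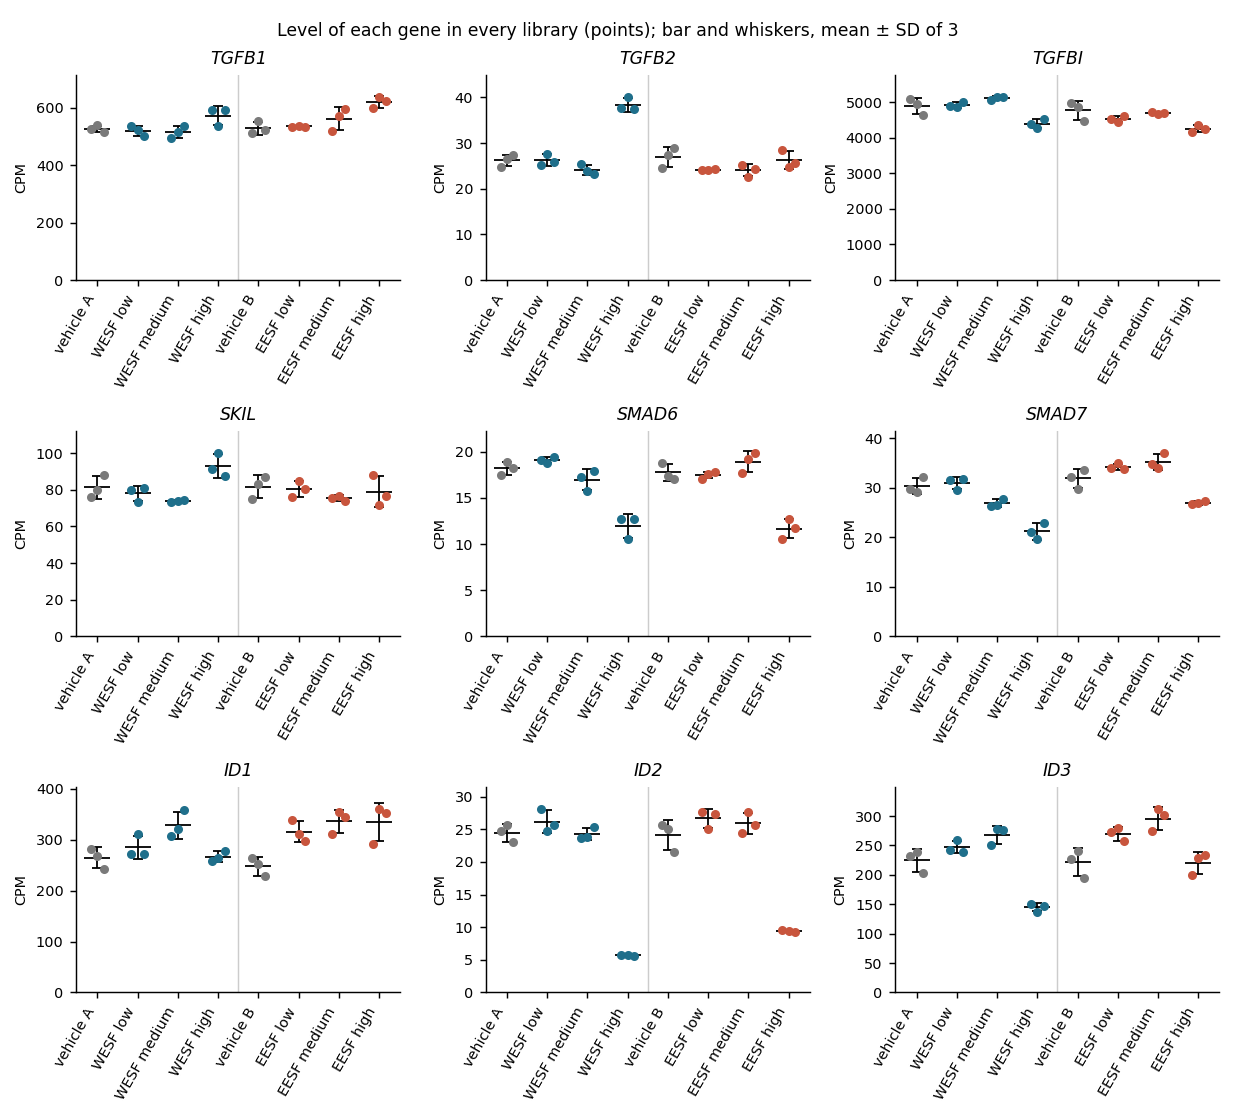
CPM of each of the 9 genes in all 24 libraries (points; grey, vehicle; blue, WESF; red, EESF) by group, with the mean and SD of 3 libraries; the vertical axes start at 0. ID2 drops only in the 2 high-dose groups, to means of 5.68 and 9.43 CPM, and TGFB2 is raised only with high-dose WESF, to a mean of 38.5 CPM.

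TGFB2 (chromosome 1, 218345336 to 218444619, plus strand), the ligand first known from glioblastoma as a suppressor of T cells, rose with high-dose WESF. Its level was 24.8, 26.5 and 27.3 CPM in vehicle A, 25.3, 27.7 and 25.9 CPM with low-dose, 25.4, 23.9 and 23.2 CPM with medium-dose and 37.6, 40.2 and 37.5 CPM with high-dose WESF. The high-dose libraries lay well above all others of the batch, and the rise was 0.55 (SE 0.057, adjusted p = 2.06e-07), short of the fold of 1.5 at 1.47. In batch B it was 24.5, 27.3 and 28.9 CPM with vehicle and 28.5, 24.8 and 25.7 CPM with high-dose EESF, which overlapped (log2 change -0.03, 95% interval -0.20 to 0.14, adjusted p = 0.746). With low-dose EESF the libraries, at 24.2, 24.1 and 24.3 CPM, lay just below the vehicle without passing the test (log2 change -0.16, adjusted p = 0.135). Without vehicle B replicate 1 this fall passed (-0.23, adjusted p = 0.0138), as did that at the medium dose of EESF (-0.23, adjusted p = 0.0281).

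TGFB1 (chromosome 19, 41301587 to 41353922, minus strand), which encodes the most widely expressed TGF-beta ligand, rose slightly at both high doses. It was at 525.1, 538.5 and 516.4 CPM in vehicle A and 592.0, 536.4 and 590.7 CPM with high-dose WESF, where replicate 2 lay within the range of the vehicle (log2 change 0.12, SE 0.047, adjusted p = 0.0301). This call was lost without vehicle A replicate 3 (adjusted p = 0.0726) and without high-dose replicate 1 (0.162) or 3 (0.137). It was at 511.1, 554.0 and 521.9 CPM in vehicle B and 600.0, 639.2 and 622.7 CPM with high-dose EESF, all above the vehicle (log2 change 0.23, SE 0.052, adjusted p = 0.00235). At the lower doses the change lay between -0.03 and 0.09 and did not pass the test. The gene shares its span with 4 genes on the opposite strand, of which HNRNPUL1 had 9119 to 15740 expected counts a library, and the sources used here do not give the strand setting of the counting.

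TGFBI (chromosome 5, 136028988 to 136063818, plus strand) fell slightly at both high doses. It was at 5091, 4960 and 4644 CPM in vehicle A and 4387, 4262 and 4513 CPM with high-dose WESF, and at 4970, 4868 and 4470 CPM in vehicle B and 4157, 4359 and 4232 CPM with high-dose EESF. The groups did not overlap in either batch. The level was 89.5% of vehicle A (log2 change -0.16, SE 0.047, adjusted p = 0.00656) and 89.1% of vehicle B (log2 change -0.17, SE 0.052, adjusted p = 0.0149), the latter call lost without vehicle B replicate 2 (adjusted p = 0.0564). The call with high-dose EESF was also lost with the replicate number as a block in the fit (adjusted p = 0.0521). At the lower doses the change lay between -0.08 and 0.06 and did not pass the test.

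Many genes changed at the high doses, so the counts of the 9 genes stand beside those of all genes tested. With high-dose WESF, 24.1% of the 13129 genes tested were DEGs, 11.1% higher and 13% lower, and 3 of the 9 genes were DEGs, all lower (SMAD6, ID2 and ID3). At any fold, 68.9% of all genes passed an adjusted p of 0.05, as did 8 of the 9. With high-dose EESF, 17.4% of 13092 genes were DEGs, 8.21% higher and 9.17% lower, and 2 of the 9 were DEGs, both lower (SMAD6 and ID2). At any fold 58% of all genes passed and 6 of the 9 did. The median log2 change of the 9 genes was -0.16 with WESF and -0.05 with EESF, beside medians over all genes of 0.00 and 0.01. The groups did not overlap for 6 of the 9 genes in each of these comparisons, beside 71.5% of all genes tested with WESF and 62.8% with EESF.

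At the lower doses, wherever any of the 9 genes passed at any fold, the 2 that did were ID1 and ID3. Low-dose and medium-dose EESF were set against the same vehicle B libraries, and vehicles A and B were not unrelated. The recurrence of ID1 and ID3 is therefore not independent from one comparison to the next. With medium-dose WESF 4.1% of genes passed and with medium-dose EESF 15.4%, and with low-dose EESF 9.35% passed. None of the 9 was a DEG there, where the share of DEGs among all genes was 0.275%, 0.755% and 0.271%. With low-dose WESF 0% of the 13131 genes were DEGs and 0% passed at any fold by edgeR, while 470 genes had an unadjusted p under 0.05 and DESeq2 called 1 DEG. ID3 was the only one of the 9 genes with an unadjusted p under 0.05 there (log2 change 0.14, 95% interval 0.01 to 0.27). The median change of the 9 genes lay between -0.03 and 0.09 in these 4 comparisons.

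**Figure D3:**
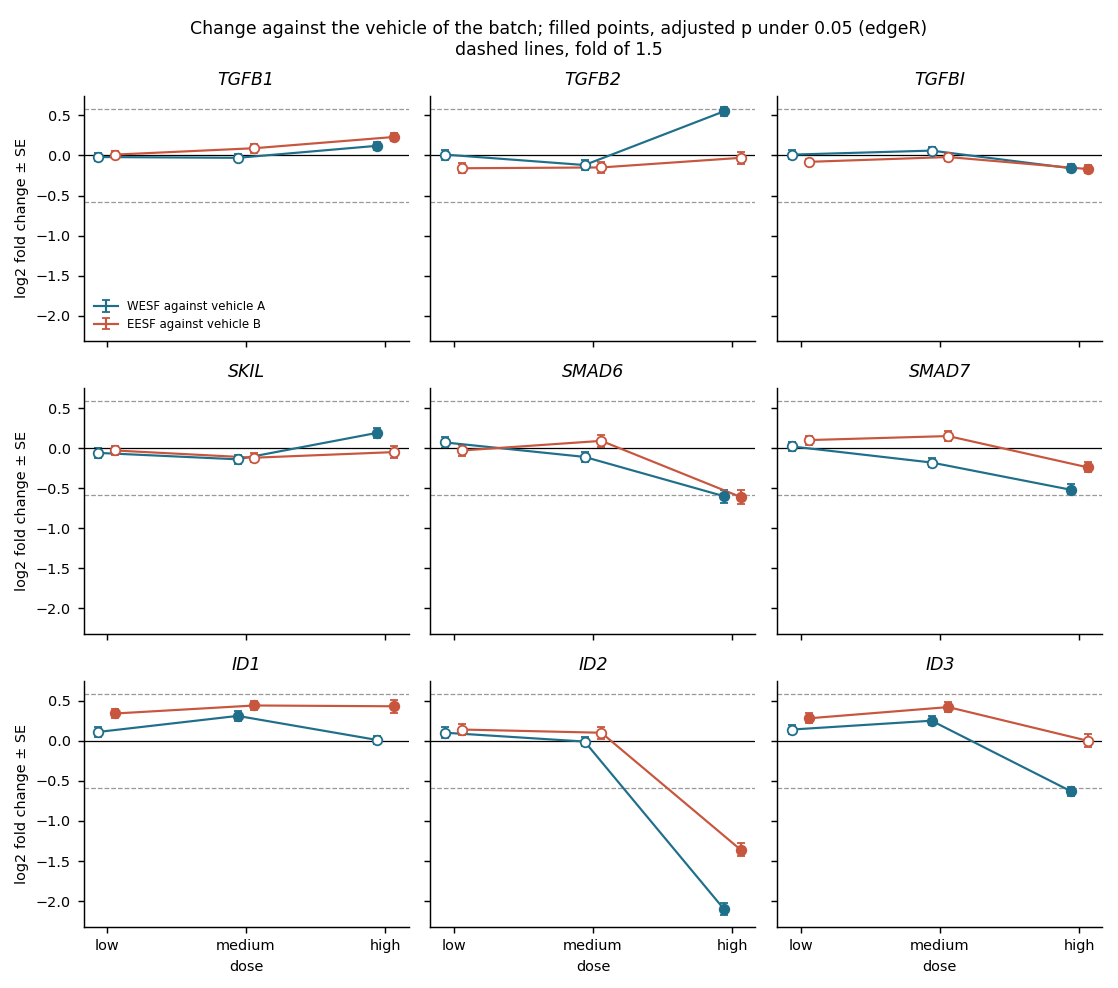
Log2 fold change ± SE of each gene against the vehicle of its batch at the low, medium and high dose (blue, WESF; red, EESF). Filled points passed an adjusted p of 0.05 in edgeR and dashed lines mark the fold of 1.5. ID2 falls at the high doses to -2.10 and -1.36, and ID1 stays raised at all 3 doses of EESF.

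Within each extract, the high dose was also compared with the medium dose, which needs no vehicle. This comparison was added after the values had been seen. With WESF, 67.6% of genes passed an adjusted p of 0.05 and so did all 9 of the genes. ID1 was lower at the high than at the medium dose by -0.30 (adjusted p = 1.94e-05), ID2 by -2.09 (adjusted p = 1.07e-14) and ID3 by -0.88 (adjusted p = 1.71e-12). SMAD6 (-0.49), SMAD7 (-0.34) and TGFBI (-0.22) were lower too, and TGFB2 (0.67), SKIL (0.34) and TGFB1 (0.16) higher. With EESF, 50.9% of genes passed and so did 6 of the 9. ID2 (-1.45), ID3 (-0.42), SMAD6 (-0.69), SMAD7 (-0.38) and TGFBI (-0.14) were lower and TGFB1 (0.15) higher, whereas ID1 changed by 0.00 (95% interval -0.16 to 0.16). Of the 6 libraries of the EESF comparison, TGFB1 lost its call without medium-dose replicate 1 or 2 or high-dose replicate 2 or 3 (adjusted p up to 0.194), and TGFBI without any of the medium-dose libraries or high-dose replicate 2 or 3 (up to 0.0885).

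The extracts were set against each other at the high dose by testing the difference between their log2 changes in a fit of 12 libraries. Extract, dose (310 against 500 µg/mL) and batch cannot be told apart in this difference. The high doses also differed in toxicity in the study's screen, as given above. The fit takes vehicle A and vehicle B libraries as independent, which they may not be, so its intervals and p-values may be off. With the vehicles alone paired, 2 of the 9 genes were DEGs. Of 13376 genes, 3.88% were DEGs in the difference and 26% passed at any fold; 2 of the 9 genes were DEGs (ID2 and ID3) and 5 passed. ID2 differed by 0.75 (95% interval 0.51 to 0.99, adjusted p = 0.00031) and ID3 by 0.63 (0.39 to 0.86, adjusted p = 0.00107), where ID2 fell with both extracts and ID3 with WESF, its change with EESF being 0.00. ID1 differed by 0.42 (0.20 to 0.65, adjusted p = 0.00912). TGFB2 differed by -0.58 (-0.79 to -0.38, adjusted p = 0.000692), since its rise occurred with WESF. SMAD7 differed by 0.28 (0.09 to 0.47, adjusted p = 0.0329), a call lost with DESeq2 (adjusted p = 0.0511) and without vehicle A replicate 3 (0.0756), high-dose WESF replicate 1 (0.0722) or 2 (0.0945), vehicle B replicate 2 (0.0975) or high-dose EESF replicate 2 (0.0607) or 3 (0.0656). ID3 passed without each library but was under the fold of 1.5 without vehicle A replicate 2 (0.58) or vehicle B replicate 3 (0.54), and TGFB2 was a DEG with DESeq2 (-0.59, adjusted p = 8.01e-06), with its size factors, with all genes of the table and when any of 6 libraries was left out, with values of -0.59 to -0.65. For SMAD6 the difference was 0.00 with an interval of -0.25 to 0.25, for TGFBI -0.01 (-0.15 to 0.14), for TGFB1 0.11 (-0.04 to 0.26) and for SKIL -0.24 (-0.47 to -0.01, adjusted p = 0.114). The call of SKIL was gained without vehicle B replicate 1 (-0.31, adjusted p = 0.0476) or high-dose EESF replicate 1 (-0.33, adjusted p = 0.0161).

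**Figure D4:**
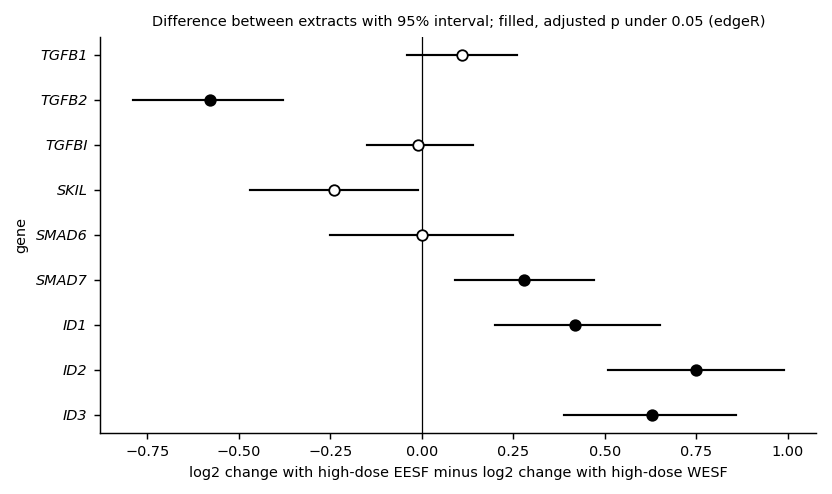
Difference between the log2 change with high-dose EESF and that with high-dose WESF for each gene, with its 95% interval (12 libraries; filled points, adjusted p under 0.05 in edgeR). ID1, ID2, ID3 and SMAD7 lie above 0 and TGFB2 lies at -0.58.

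Other genes of the pathway were read from 9 lists that hold 102 genes, the 9 genes above among them. With high-dose WESF 89 of these were tested, of which 14 were DEGs with a rise and 19 with a fall, beside 11.1% and 13% of all genes tested. With high-dose EESF 88 were tested, of which 12 were raised and 13 lowered DEGs, beside 8.21% and 9.17% of all genes. Their median log2 changes were -0.09 and -0.12, beside 0.00 and 0.01 over all genes. These shares and medians of all genes also stand beside the counts of each list that follows, and nothing is called particular to a list.

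Among 22 genes of ligands, 13 were tested at the high doses. INHBA, the activin A subunit, rose most, from 70.6, 70.2 and 71.5 CPM to 311.4, 334.4 and 316.5 CPM with WESF (log2 change 2.18, SE 0.046, adjusted p = 8.35e-16) and from 74.1, 71.6 and 69.8 CPM to 210.5, 205.7 and 239.9 CPM with EESF (1.61, SE 0.065, adjusted p = 4.73e-09). BMP4, a ligand that feeds the ID genes, fell from 11.5, 10.3 and 11.1 CPM to 3.13, 2.91 and 2.85 CPM with WESF (-1.89, SE 0.11, adjusted p = 9.96e-11) and from 10.9, 9.87 and 10.9 CPM to 3.89, 5.05 and 3.95 CPM with EESF (-1.29, SE 0.12, adjusted p = 2e-06). In every high-dose library INHBA thus lay above and BMP4 below all vehicle libraries. BMP4 was also lower with medium-dose WESF (-0.46, adjusted p = 0.0135), where 4.1% of all genes passed. GDF15, a stress-induced member of the family, rose by 1.32 and 1.07, BMP6 by 1.93 and 0.87 from a level near 1 CPM, and TGFB3, the remaining TGF-beta ligand, fell by 0.34 and 0.52. TGFB3 was lower at the medium doses too (-0.33, adjusted p = 0.0128, with WESF and -0.32, adjusted p = 0.0176, with EESF). GDF11 fell by 0.75 and 0.43 and GDF6 by 0.47 and 0.60, the first value with WESF each time. TGFB3, BMP6 and GDF11 each share their span with a gene on the opposite strand, as SMURF2, ID4 and ACTA2 below do, and NRROS with PIGX on its own strand, so reads of these pairs may not be fully told apart. The limit is largest for BMP6, with 15 to 26 expected counts a library in vehicle A beside 11129 to 22627 for TXNDC5 over all libraries. NRROS had 16 to 27 in vehicle A beside 1109 to 2070 for PIGX. Whether such reads entered the changes of BMP6 and NRROS was not tested. In all, 4 ligands were raised and 2 lowered DEGs with WESF, and 5 raised and 2 lowered with EESF, with medians of 0.27 and 0.10.

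TGF-beta is secreted in a latent form that integrins and thrombospondin release. ITGB8, the integrin subunit that frees latent TGF-beta, had the largest fall of a well-measured gene in these lists. It went from 44.7, 48.1 and 56.2 CPM in vehicle A through 44.2, 43.6 and 42.7 CPM at the low and 32.2, 29.5 and 25.7 CPM at the medium dose to 4.79, 4.83 and 5.52 CPM at the high dose of WESF. In batch B it went from 46.1, 49.6 and 55.4 CPM through 41.2, 42.9 and 44.7 CPM and 34.5, 34.3 and 34.3 CPM to 5.41, 5.59 and 5.18 CPM with EESF. From the low dose on, the groups did not overlap with the vehicle in either batch. The log2 change was -3.30 with high-dose WESF (SE 0.099, adjusted p = 5.49e-14) and -3.22 with high-dose EESF (SE 0.088, adjusted p = 2.16e-10), and it passed the test at the medium dose of both extracts (-0.77 and -0.55) and the low dose of EESF (-0.24, adjusted p = 0.0341), but not of WESF (-0.19, adjusted p = 0.999). LTBP4, which stores latent TGF-beta in the matrix, rose by 1.06 and 0.95, while THBS1, an activator, fell by 0.19 and 0.22. NRROS, which anchors latent TGF-beta on cells, rose with EESF (0.89, adjusted p = 0.00912) and was at 0.53 with WESF (adjusted p = 0.0898). LRRC32, another such anchor, was a DEG with WESF but rested on 0 to 2 expected counts a high-dose library against 14 to 23 in vehicle A. Of 11 genes, 1 was a raised and 2 were lowered DEGs with WESF (median -0.05), and 2 of 10 tested were raised and 1 lowered with EESF (median -0.08).

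Of 13 receptor genes 11 were tested, with a median of -0.38 with either extract. TGFBR2, the receptor that binds TGF-beta first, fell from 78.4, 80.6 and 78.7 CPM to 44.6, 50.2 and 50.9 CPM with high-dose WESF (-0.71, SE 0.053, adjusted p = 3.6e-09) and from 80.1, 81.5 and 80.9 CPM to 52.7, 51.6 and 51 CPM with high-dose EESF (-0.64, SE 0.05, adjusted p = 6.36e-07). The co-receptor genes TGFBR3 (-0.69 and -0.84) and ENG (-0.98 and -0.55) and the BMP receptor gene BMPR2 (-0.56 and -0.74) fell with both extracts. TGFBR1 rose with WESF (0.37, adjusted p = 1.83e-06) and was at -0.14 with EESF (adjusted p = 0.0742), a fall that passed without vehicle B replicate 1 (adjusted p = 0.041) or high-dose EESF replicate 1 (0.0104) and with all groups of the batch in the fit (0.0299). The activin receptor gene ACVR2B rose with WESF (0.62, adjusted p = 2.38e-05) and was at 0.10 with EESF (adjusted p = 0.541). DEGs numbered 1 raised and 3 lowered with WESF and 0 raised and 3 lowered with EESF.

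All 6 signalling SMAD genes were tested. SMAD3, which carries the TGF-beta and activin signal, rose from 133.2, 140.8 and 145.6 CPM to 231.0, 224.8 and 231.3 CPM with high-dose WESF (0.71, SE 0.046, adjusted p = 5.48e-10) and from 135.1, 139.6 and 143.4 CPM to 221.8, 222.6 and 213.0 CPM with high-dose EESF (0.65, SE 0.05, adjusted p = 5.85e-07). SMAD4, the shared partner, rose with WESF (0.35, adjusted p = 1.17e-05) and was at 0.11 with EESF (adjusted p = 0.17), while SMAD2, which carries the same signal as SMAD3, fell by 0.47 (adjusted p = 2.28e-07) and 0.51 (adjusted p = 1.9e-05). Of the BMP SMADs, SMAD1 fell with WESF (-0.31, adjusted p = 0.00269) and was at -0.10 with EESF (adjusted p = 0.27), and SMAD5 rose with WESF (0.32, adjusted p = 4.14e-05) and was at -0.02 with EESF (adjusted p = 0.796). SMAD9, the remaining one, rose by 0.62 with WESF and by 0.42 with EESF, where the call (adjusted p = 0.0468) was lost in 8 of 13 alternatives. With WESF 2 of the 6 were raised DEGs (median 0.33) and with EESF 1 was (median 0.04), and none was a lowered DEG.

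Extracellular antagonists trap BMPs or activins before they reach a receptor. GREM1, a BMP trap, rose by 1.13 and 0.94, FST, the activin trap follistatin, by 1.41 and 0.58 from a level of 1.34 and 1.37 CPM (the latter call lost in 5 of 13 alternatives), and NOG rose with WESF (0.70, adjusted p = 0.00456) and was at 0.33 with EESF (adjusted p = 0.173). DCN, the matrix proteoglycan decorin that binds TGF-beta, fell by 0.44 (adjusted p = 0.000799) and 0.56 (adjusted p = 0.000873), and TWSG1, a BMP-binding protein, by 0.25 and 0.33. CHRDL1, a relative of the BMP trap chordin, fell by 0.21 and 0.28, calls lost in 4 and 2 of 13 alternatives. These falls were under the fold of 1.5. Of 10 tested, 3 were raised DEGs with WESF and 1 with EESF and none was a lowered DEG, whereas at any fold 6 passed higher and 3 lower with WESF and 4 passed higher and 4 lower with EESF, beside 68.9% and 58% of all genes in either direction, with medians of 0.19 and 0.20.

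The 12 intracellular inhibitors, SKIL, SMAD6 and SMAD7 among them, went in both directions. TGIF1, a corepressor, rose by 1.08 and 0.55 and SMURF2, a ubiquitin ligase for SMADs and receptors, by 0.74 and 0.59. PMEPA1, a TGF-beta-induced inhibitor, fell by 0.72 and 0.48 and BAMBI, a decoy receptor, by 0.65 and 0.70. DEGs numbered 2 raised and 4 lowered with WESF (median -0.21) and 1 raised and 2 lowered with EESF (median -0.15).

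TGF-beta targets did not move one way. CCN2, a matricellular target, rose by 0.51 and 0.19 (the latter call lost in 5 of 13 alternatives). The contractile genes ACTA2 (-1.02 and -0.80) and TPM1 (-0.86 and -0.62) fell, as did SNAI2, a transcription factor of the mesenchymal state (-0.99 and -0.46). Of the 21 genes, 2 were raised DEGs with WESF, TGIF1 among them, and 5 were lowered (median -0.18). With EESF 1 was a raised and 2 were lowered DEGs (median -0.19). TGFBI and THBS1 fell by less than the fold of 1.5.

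Of 14 BMP targets 13 were tested, with a median of -0.52 with WESF and -0.24 with EESF. With WESF 2 were raised and 6 lowered DEGs, and with EESF 1 was raised and 5 were lowered. ID4, the remaining ID gene, fell from 3.5, 3.69 and 3.19 CPM to 1.23, 0.838 and 0.92 CPM with high-dose WESF (-1.78, SE 0.19, adjusted p = 2.6e-07) and from 3.3, 3.38 and 3.57 CPM to 1.77, 1.47 and 1.46 CPM with high-dose EESF (-1.12, SE 0.16, adjusted p = 6.86e-05). The high-dose libraries lay below all vehicle libraries in both batches. The raised DEGs were SMAD9 and NOG with WESF and MSX1, a homeobox gene, with EESF (0.60, adjusted p = 0.000407). At the medium and low doses of EESF 4 and 3 of the 13 passed the test at any fold, all higher, beside 15.4% and 9.35% of all genes in either direction. With medium-dose WESF 3 were higher, beside 4.1% of all genes, and ID1 and ID3 were among them each time. These comparisons share or have linked vehicles, so they do not count as independent repeats.

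The E proteins that ID proteins hold, TCF3, TCF4 and TCF12, passed the test with both extracts, as did 68.9% of all genes with WESF and 58% with EESF, but none was a DEG. TCF3 rose by 0.16 and 0.27, TCF4 fell by 0.52 and 0.48 and TCF12 fell by 0.16 and 0.31. With WESF the call of TCF3 was lost without high-dose replicate 1 (adjusted p = 0.06) and that of TCF12 without high-dose replicate 3 (adjusted p = 0.0523).

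**Figure D5:**
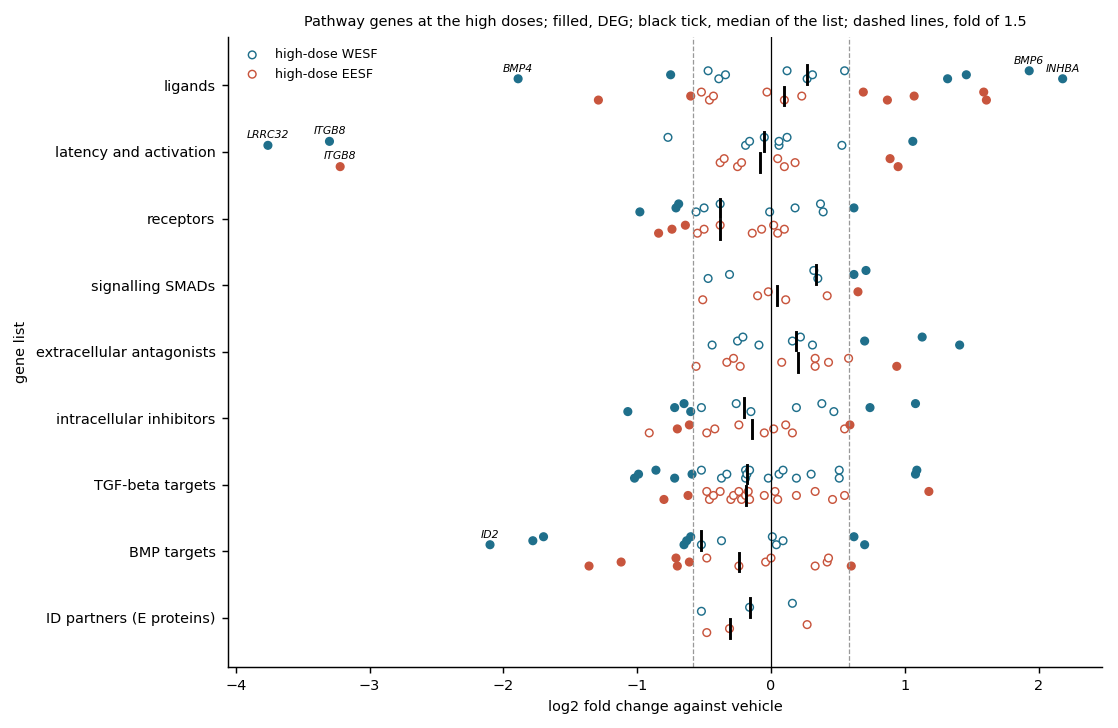
Log2 fold change of each tested gene of the 9 pathway lists at the high dose of WESF (blue) and EESF (red); filled points are DEGs, black ticks the median of a list and dashed lines the fold of 1.5. INHBA and BMP6 lie farthest to the right, ITGB8 and LRRC32 (0 to 2 expected counts with high-dose WESF) to the left, and the medians of ligands, signalling SMADs and extracellular antagonists lie above 0 and those of the other 6 lists below 0 with both extracts.

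The genes whose levels ran most like those of the 9 were found over the 24 libraries, after the mean of each batch was subtracted, among 9548 other protein-coding genes with a mean of at least 10 CPM. The points share batches, dose groups and library sizes, so r is a description only. ID2 ran with CDKN2C and ZSCAN31 (r = 0.99 for both), TGFB2 with PJA2 (0.98) and G3BP2 (0.96), SMAD6 with HS1BP3 and ALAD (0.96 for both), SMAD7 with GATA6 and MARCKS (0.95 for both) and ID3 with ALDH3B1 (0.95) and KRT7 (0.94). The values were lower for TGFB1 with MED25 (0.92) and TESK1 (0.90), TGFBI with PEBP1 (0.90) and COL5A1 (0.89), SKIL with PIK3C2A (0.89) and ID1 with U2AF1L4 and NELFE (0.87 for both). Among the 9 genes themselves, r was highest between SMAD6 and ID2 (0.93) and between SMAD6 and SMAD7 (0.92), and lowest between TGFB2 and ID3 (-0.93). ID1 ran with ID3 at 0.56 and with ID2 at 0.05.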

How the data were processed

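Reads of 24 libraries (3 per group) were processed by the authors with Trim Galore 0.6.6, STAR 2.7.9a and RSEM 1.3.3 on GRCh38, per the labels and methods, and the authors deposited expected counts per gene, neither normalized nor filtered. RSEM divides reads that match several genes, and 10.9% of the values were not whole.

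The expected counts were rounded to whole numbers. Protein-coding genes (GENCODE 44) that passed filterByExpr were tested with edgeR 4.0.16 in R 4.3.3 (TMM, 2-sided quasi-likelihood test, Benjamini-Hochberg adjustment over all genes tested), each comparison on its own 6 libraries and the extract difference on 12. The script was tested on simulated data. Alternatives were DESeq2 1.42.0 (the tool of the study's methods), other scalings and filters, counts thinned to 18727769 per library, more groups in the fit, a replicate block and each library left out. Intervals cover 95%.

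The 9 genes, the lists, tests and naming rule were chosen with earlier results of these data known. All 9 are named. From each pathway list up to 2 rises and 2 falls were named per high-dose comparison, from DEGs averaging at least 1 CPM whose groups did not overlap, besides 13 genes to be named in any case; a gene of these and another that the rule on likeness named are not reported here. LRRC32, SMAD1, SMAD2, SMAD5, DCN, TWSG1, CHRDL1 and the E proteins were named after their values were seen. Promoters are from RefSeq (GRCh38.p14), where all 9 genes matched.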

Additional observations from a re-analysis of the deposited data

Results flagged for a closer look

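The response to the extracts differed at the high dose for 5 of the 9 genes, by a test of the difference itself (edgeR, 12 libraries, log2 change with EESF minus that with WESF), which 26% of all genes tested passed. TGFB2 gave -0.58, and SMAD7, ID1, ID2 and ID3 gave 0.28, 0.42, 0.75 and 0.63, of which the call of SMAD7 was lost in 7 of 20 alternatives, DESeq2 among them (adjusted p = 0.0511). Extract, dose and batch cannot be told apart in these values.

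Other genes named in the report passed the same test, most of them named because they were DEGs at the high doses. The value was positive for the ligand genes BMP4 (0.60) and GDF11 (0.33), the co-receptor gene ENG (0.44), the inhibitor gene PMEPA1 (0.24), the TGF-beta targets ACTA2 (0.22), TPM1 (0.24) and SNAI2 (0.53) and the BMP targets ID4 (0.66) and MSX1 (0.56). It was negative for BMP6 (-1.06), INHBA (-0.57), TGFBR1 (-0.51), ACVR2B (-0.52), SMAD4 (-0.24), SMAD5 (-0.34), FST (-0.83), TGIF1 (-0.52) and CCN2 (-0.33).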

How the results depend on the processing

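Of 81 log2 changes of the 9 genes (9 comparisons), 40 passed the test, none of these changed sign in any alternative, and 31 passed in every alternative run. The 9 that lost their call somewhere are TGFB1 and SKIL at high-dose and ID1 and ID3 at medium-dose WESF, TGFBI at high-dose and ID3 at low-dose EESF, SMAD7 in the extract difference, and TGFB1 and TGFBI between the high and medium dose of EESF. Counts thinned to the shallowest library changed no call of the 9 genes against a vehicle, whereas leaving out a library lost some calls and gained others.

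DESeq2 gave 23 DEGs at medium-dose and 1 at low-dose WESF (edgeR 36 and 0), and 33 at medium-dose and 8 at low-dose EESF (edgeR 98 and 35). Without a filter on low counts low-dose WESF gave 3 DEGs and low-dose EESF 64, and with all genes of the table the latter gave 73. Leaving out each library gave 9 to 61 DEGs at medium-dose and 0 to 1 at low-dose WESF, and 50 to 164 at medium-dose and 11 to 91 at low-dose EESF. Among the 9 genes it gave 1 to 3 DEGs with high-dose WESF, 1 to 2 with high-dose EESF and 1 to 3 in the extract difference. The lowest and highest totals came without medium-dose WESF replicate 3 and vehicle A replicate 1, without medium-dose EESF replicate 3 and vehicle B replicate 1, and at low-dose EESF without vehicle B replicates 2 and 1.

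Values near 0 that never passed the test changed sign when a library was left out. They ranged from -0.05 to 0.06 for ID1 at high-dose and -0.05 to 0.02 for ID2 at medium-dose WESF. At low-dose WESF they ranged from -0.04 to 0.01 for TGFB1 and from -0.03 to 0.03 for TGFBI. Those for TGFB2 at low-dose WESF ranged from -0.03 to 0.03 (up to 0.05 over all alternatives). At high-dose EESF they ranged from -0.10 to 0.02 for TGFB2, -0.14 to 0.01 for SKIL, -0.01 to 0.23 for ACVR2B and -0.12 to 0.03 for SMAD5, and at low-dose EESF from -0.02 to 0.04 for TGFB1, -0.10 to 0.02 for SKIL and -0.05 to 0.01 for SMAD6. TGFBI ranged from -0.05 to 0.03 in the extract difference, SKIL from -0.01 to 0.14 between the high and medium dose of EESF and MSX1 from -0.06 to 0.11 at high-dose WESF.

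The replicate number as a block gave 3156 DEGs at high-dose WESF (3158 without it), 24 at medium-dose WESF, 2228 at high-dose EESF and 437 in the extract difference. With the replicate block ID3 at medium-dose WESF (adjusted p = 0.0538) and TGFBI at high-dose EESF (adjusted p = 0.0521) lost their calls. Same-numbered treated and vehicle libraries did not deviate together (r of -0.077 to 0.0798). Pairing the vehicles alone gave 541 DEGs in the extract difference and 2 of the 9 genes. The cause of these changes was not tested.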
